A study of Mus musculus with 8 samples.

Results

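The 9 genes described here, Neurog3, Insm1, Neurod1, Neurod2, Pax4, Nkx2-2, Fev, Myt1 and Tox3, encode transcription factors of the endocrine precursor of the embryonic pancreas. They were taken by name from the array, which carried all 9 of them on 10 of its 41174 probes, 2 probes for Neurod2 and 1 for each other gene. RNA was measured in microdissected mouse pancreatic epithelium, dorsal and ventral together, at e15.5, in 4 Sox9 mutant pools and 4 wild-type pools of 4 pancreata each. Mutant embryos were Sox9 fl/fl; Rosa26-CreER, that is, homozygous for a Sox9 allele flanked by loxP sites and carrying a recombinase that tamoxifen activates, and wild-type embryos were Rosa26-CreER littermates. Tamoxifen (6 mg per 40 g) had been given to the dams of both groups at e12.5, 3 days before dissection, so the wild-type embryos had been exposed to the recombinase and the drug as well. The cross combined Sox9-flox animals of a mixed FVB/N, C57Bl/6J and CD1 background with Rosa26-CreER animals of a C57Bl/6J background. Rosa26 is active in nearly all cell types, so recombination need not have been restricted to the epithelium, and, with pooled embryos, errors describe variation among pools and not among single embryos.

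Endocrine cells of the mouse pancreas arise from epithelial progenitors that carry Sox9 and switch on Neurog3, a basic helix-loop-helix (bHLH) factor without which hormone cells do not form. Neurog3 is expressed for a short time and activates a second tier of factors, among them Insm1, Neurod1, Pax4 and Nkx2-2, which carry cells towards the hormone-producing types. Notch signalling through Hes1 holds Neurog3 down in neighbouring cells, and several of the second-tier factors also work in developing neurons.

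Levels are log2 processed signals minus the 75th percentile of the same array, so 0 is the brightness of a probe at that percentile. Levels of different probes are not set against each other, except where the linear levels of a marker list are summed. The array of mutant replicate 2 stood apart: its median processed signal was 756, against 219 to 272 on the other 7 arrays, and 86.1% of its probes were well above background, against 69.6% to 74.0%. The median signal of its negative controls was 20.4, against 4.43 to 6.47. Its profile differed too, with a median correlation with the arrays of its own genotype of 0.923, against 0.9935 to 0.9955 for the others. Where leaving it out changed a call or a count of calls, the value without it is given too. All mutant arrays lay on one slide and all wild-type arrays on another, so slide and genotype cannot be told apart. Sox9 itself was lower in all 4 mutant pools, at 0.59, 0.40, 0.52 and 0.47, against 1.77, 1.90, 1.87 and 1.77 in the wild-type pools, or 39.8% of the wild-type level (adjusted p 8.06e-04); a second probe fell to 17.6% (adjusted p 0.0013) and the third did not pass the test (log2 fold change 0.63, adjusted p 0.342, and 0.23 without mutant replicate 2, adjusted p 0.238). Whether these probes lie in the floxed part of the gene is not given in the sources used here. All 8 epithelial markers examined, Cdh1, Epcam and keratins among them, passed the filter on dim probes.

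The promoters of the 3 bHLH members are shown because Neurog3, Neurod1 and Neurod2 belong to one family, whose proteins bind the E-box CANNTG. Each sequence is from RefSeq (GRCm38.p6), runs 5′ to 3′ on the strand of the gene and covers 250 bases before to 50 after the annotated start. Capitals mark every match to CANNTG, which reads the same on both strands, and to the SOX core motifs ACAAAG and ACAATG on either strand (CTTTGT and CATTGT in reverse).
Neurog3, chr10:62132840-62133139, plus strand: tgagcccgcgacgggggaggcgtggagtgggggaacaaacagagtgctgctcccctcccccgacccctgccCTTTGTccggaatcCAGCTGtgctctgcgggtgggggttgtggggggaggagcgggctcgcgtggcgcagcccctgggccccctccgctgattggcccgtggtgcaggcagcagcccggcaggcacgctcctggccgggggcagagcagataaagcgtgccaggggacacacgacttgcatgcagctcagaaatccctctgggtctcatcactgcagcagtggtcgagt
Neurod1, chr2:79456587-79456886, minus strand: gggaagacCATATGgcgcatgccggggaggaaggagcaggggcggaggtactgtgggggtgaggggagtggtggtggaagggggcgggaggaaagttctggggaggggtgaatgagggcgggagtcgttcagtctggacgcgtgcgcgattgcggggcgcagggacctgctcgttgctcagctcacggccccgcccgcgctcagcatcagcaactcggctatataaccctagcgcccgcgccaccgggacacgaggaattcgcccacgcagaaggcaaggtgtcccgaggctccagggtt
Neurod2, chr11:98329596-98329895, minus strand: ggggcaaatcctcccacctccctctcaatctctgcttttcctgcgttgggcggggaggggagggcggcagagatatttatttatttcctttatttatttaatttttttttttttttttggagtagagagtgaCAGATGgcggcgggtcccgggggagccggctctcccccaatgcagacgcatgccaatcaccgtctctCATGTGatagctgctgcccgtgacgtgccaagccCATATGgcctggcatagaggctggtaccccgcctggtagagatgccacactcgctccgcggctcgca
The Neurog3 window held a reverse ACAAAG match 179 bases and an E-box 165 bases upstream of the start. The Neurod1 window held 1 E-box, 242 bases upstream, and that of Neurod2 held 3, at 118, 51 and 17 bases upstream. The promoter table matched 7 of the 9 genes, with 9 windows in all, 3 of them for Myt1. CANNTG was found in 7 of these 9 windows and in 72.3% of all 32851 windows of that length, ACAAAG in 3 of 9 and in 18.7%, and ACAATG in 1 of 9 and in 12.6%, and no matches overlapped in the 9 windows. These matches are descriptions of the sequence and not binding sites.

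Transcripts of the endocrine precursor factors were scarcer in the Sox9 mutant epithelium. Of the 9 genes, 8 fell (adjusted p under 0.05 over 19394 features), to between 27.0% of the wild-type level for Neurog3 and 55.2% for Nkx2-2. The exception, Neurod1, had a mean at 33.1% of wild type but an adjusted p of 0.0751. Over all features the same test called 3.45% lower and 2.13% higher, 5.58% in all. For each of the 9 genes, Neurod2 at its brighter probe, every mutant pool lay below every wild-type pool, which was also so for 15.2% of all features. The median log2 fold change, mutant minus wild type, was -1.58 over the 9 genes and -0.00 over all features. In whole tissue, fewer precursor cells and less RNA in each of them cannot be told apart.

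**Figure D1:**
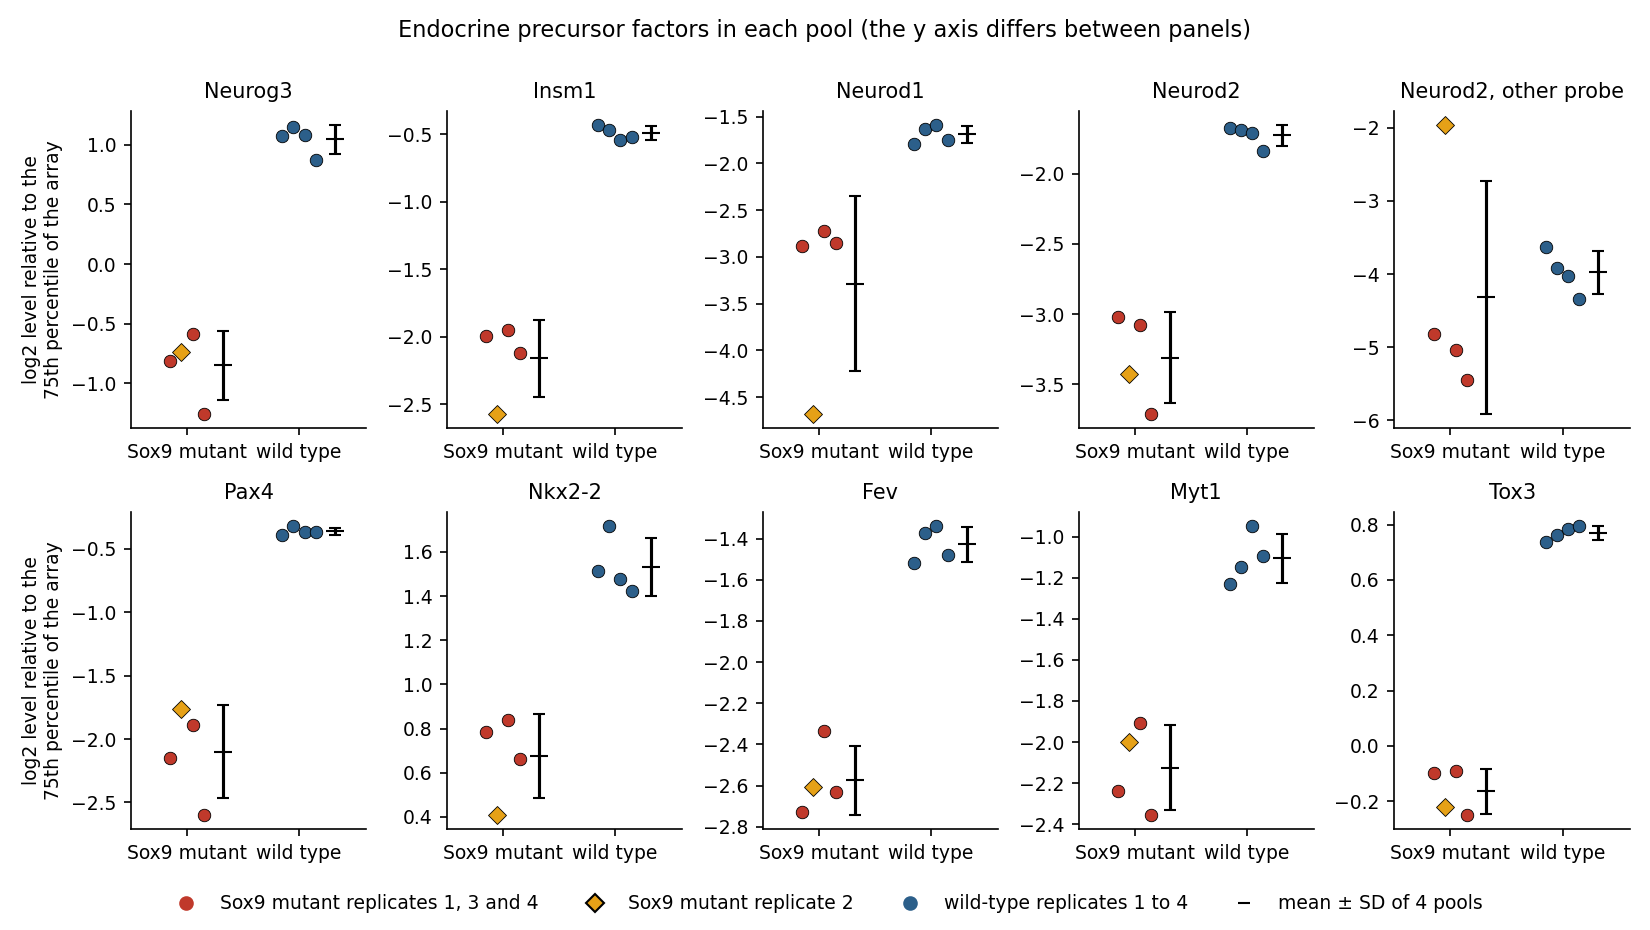
Log2 level (zero at the array's 75th percentile) of each endocrine precursor factor in each Sox9 mutant pool (left) and each wild-type pool (right), with the mean ± SD of 4 pools. In every panel but the one for the other Neurod2 probe all mutant pools lie below all wild-type pools, and mutant replicate 2 (diamond) is set apart for Neurod1, at -4.68.

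Neurog3 was measured by probe A_51_P175784, at chr10:61529179-61529238 on the plus strand of mm8, the build of the array files; whether probes lie in coding or untranslated sequence was not looked up, as no annotation of that build was used here. Its log2 levels were -0.81, -0.74, -0.58 and -1.25 in the mutant pools, against 1.07, 1.15, 1.08 and 0.87 in the wild-type pools. The highest mutant pool and the lowest wild-type pool were 1.45 apart, a wider distance than that between any pools of one genotype. Neurog3 averaged -0.85 ± 0.29 in mutant and 1.04 ± 0.12 in wild-type pools (SD, n = 4 each), a log2 fold change of -1.89 (SE 0.15, 95% interval -2.24 to -1.54, adjusted p 0.00216) or a 3.70-fold fall. Permuting the genotypes exactly over the pools gave a two-sided p of 0.0286 for the difference, the smallest that 4 against 4 arrays allow. Counted from the largest fall, Neurog3 held place 32 among the 19394 features.

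Insm1, a zinc-finger repressor activated by Neurog3 and needed for endocrine differentiation in mice, was measured at chr2:145915710-145915769 (plus strand, mm8). Its log2 levels were -2.0, -2.57, -1.95 and -2.12 in the mutant pools, against -0.43, -0.47, -0.54 and -0.52 in the wild-type pools. The wild-type pools lay close together and the mutant pools all far below them, with replicate 2 lowest. The log2 fold change was -1.67 (SE 0.14, adjusted p 0.00263), which left 31.5% of the wild-type level.

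Neurod1, a bHLH factor that Neurog3 activates and that maturing islet cells retain, was measured at chr2:79254303-79254362 (minus strand, mm8). Its log2 levels were -2.88, -4.68, -2.73 and -2.85 in the mutant pools, against -1.79, -1.63, -1.59 and -1.74 in the wild-type pools. Mutant replicates 1, 3 and 4 lay close together, while replicate 2 lay far below them and was the one pool in which the probe was not well above background. The log2 fold change over all 8 arrays was -1.60 with an SE of 0.42 and a 95% interval of -2.59 to -0.60 (adjusted p 0.0751). Without mutant replicate 2 it was -1.13 with an SE of 0.07 (adjusted p 6.04e-04), a smaller difference with a narrower error.

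Neurod2, a relative of Neurod1 best known from neurons, had probes at chr11:98142680-98142727 and chr11:98143443-98143502 (minus strand, mm8). At the brighter, first probe the log2 levels were -3.02, -3.43, -3.08 and -3.71 in the mutant pools, against -1.67, -1.69, -1.71 and -1.84 in the wild-type pools, and the log2 fold change was -1.58 (SE 0.16, adjusted p 0.00424). The other probe gave -4.82, -1.96, -5.04 and -5.44 in the mutant pools, against -3.62, -3.92, -4.02 and -4.34 in the wild-type pools. Here the genotypes overlapped, through mutant replicate 2 alone, which was the highest of all 8 pools. Its log2 fold change was -0.34 (SE 0.73, 95% interval -2.05 to 1.37, adjusted p 0.773 over 29465 probes, 3.84% of which were called), against -1.13 without that replicate (adjusted p 0.0138). Without mutant replicate 4 the estimate at the other probe turned to 0.034, and the difference between the probes was not tested. With both probes averaged, Neurod2 was no longer called (log2 fold change -0.96, adjusted p 0.181).

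Pax4, a paired-homeobox repressor required for the beta and delta cells of mice, was measured at chr6:28392366-28392425 (minus strand, mm8). Its log2 levels were -2.15, -1.77, -1.89 and -2.60 in the mutant pools, against -0.39, -0.32, -0.37 and -0.37 in the wild-type pools. The wild-type pools were nearly equal (SD 0.03) and the mutant pools spread more widely (SD 0.37), and the groups did not overlap. The log2 fold change was -1.74 (SE 0.17, adjusted p 0.00435), a 3.33-fold fall to 30.0% of the wild-type level. After Neurog3, Pax4 had the largest fall of the 9 genes by its estimate.

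Nkx2-2, a homeobox factor that is present in early progenitors as well as in endocrine cells and is required for beta cells in mice, was measured at chr2:146874593-146874617 (minus strand, mm8). Its log2 levels were 0.79, 0.41, 0.84 and 0.66 in the mutant pools, against 1.51, 1.72, 1.48 and 1.42 in the wild-type pools. Its mutant pools again lay below every wild-type pool, but by less than for the genes above. The log2 fold change was -0.86 (SE 0.11, 95% interval -1.12 to -0.59, adjusted p 0.0099), the smallest of the 9.

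Fev, an ETS-family factor that also marks serotonergic neurons, was measured at chr1:74814893-74814952 (minus strand, mm8). It had log2 levels of -2.73, -2.61, -2.34 and -2.63 in the mutant pools, against -1.52, -1.37, -1.34 and -1.48 in the wild-type pools. All mutant pools were lower, and the log2 fold change was -1.15 (SE 0.10, adjusted p 0.00267), or 45.2% of the wild-type level. Myt1, a zinc-finger factor of neural and endocrine precursors, was measured at chr2:181756801-181756860 (plus strand, mm8), with log2 levels of -2.24, -2.0, -1.91 and -2.35 in the mutant pools, against -1.23, -1.15, -0.95 and -1.09 in the wild-type pools. Its groups were apart as well, and the log2 fold change was -1.02 (SE 0.12, adjusted p 0.0062), a 2.03-fold fall.

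Tox3, which encodes a protein with an HMG box, a DNA-binding domain, was measured at chr8:93137351-93137410 (minus strand, mm8). Its log2 levels were -0.10, -0.22, -0.09 and -0.25 in the mutant pools, against 0.74, 0.76, 0.78 and 0.79 in the wild-type pools. Both groups were tight, with SDs of 0.08 in mutant and 0.03 in wild-type pools. The log2 fold change was -0.93 (SE 0.06, adjusted p 0.00136), so that Tox3 had the smallest SE and the smallest adjusted p of the 9 genes although its fall, to 52.3% of the wild-type level, was among the smaller ones.

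Leaving out any 1 of the 8 arrays kept the calls of these 8 genes. Without mutant replicate 2 all 9 genes were called lower, against 10.6% of all features lower and 6.77% higher, their median log2 fold change was -1.14, and that of Neurog3 was -1.93 (adjusted p 0.00114). Other scalings ended some of the calls: with all 8 arrays, 2 genes (Neurog3 and Pax4) were called lower after centring each array on its median, 4 after quantile normalization (these and Nkx2-2 and Tox3) and 5 after a normexp background correction (Neurog3, Insm1, Neurod2, Pax4 and Tox3). Over all features, 24 were called lower after median centring, 482 after quantile normalization and 83 after normexp, against 669 in the reported setting. With mutant replicate 2 left out, all 9 were called lower after median centring and after quantile normalization. Of all features, 2350 and 2126 were called lower in those settings.

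**Figure D2:**
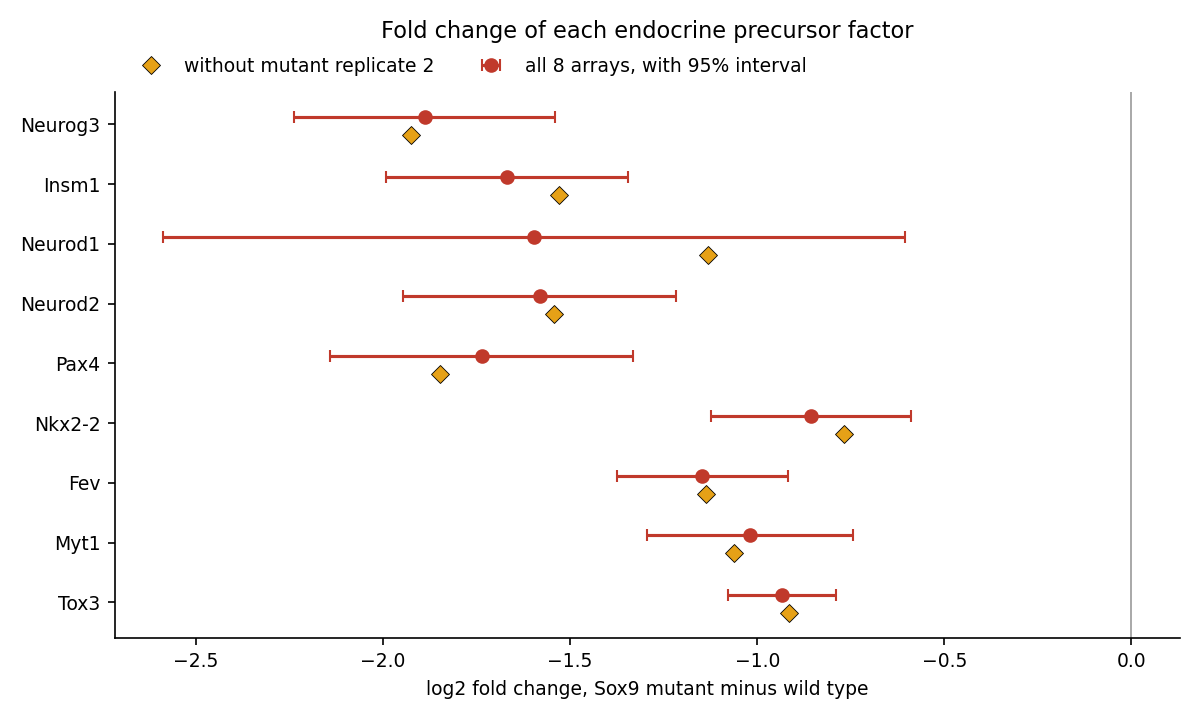
Log2 fold change (Sox9 mutant minus wild type, horizontal axis) of each endocrine precursor factor, as the estimate from all 8 arrays with its 95% interval (circles) and as the estimate without mutant replicate 2 (diamonds). The intervals run from -2.24 to -1.54 for Neurog3 and from -1.12 to -0.59 for Nkx2-2, and the estimate that moves most without the replicate is that of Neurod1.

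Whether the other genes fell by as much as Neurog3 was tested by fitting the difference between each feature and Neurog3 on the same array. Of the 8, 4 fell by less than Neurog3: the log2 fold change of Nkx2-2 was 1.03 above that of Neurog3 (95% interval 0.58 to 1.48, adjusted p 5.52e-04), that of Tox3 0.95 above (0.54 to 1.37, adjusted p 5.60e-04), that of Myt1 0.87 above (0.48 to 1.26, adjusted p 7.06e-04) and that of Fev 0.74 above (0.33 to 1.15, adjusted p 0.00271). Since Neurog3 had one of the largest falls on the array, 98.3% of all features differed from it in this test, so a difference is the usual case. For the other 4 no difference was detectable in the reported setting. The distance from Neurog3 was 0.15 for Pax4 (-0.22 to 0.53, adjusted p 0.386), 0.22 for Insm1 (-0.28 to 0.72, adjusted p 0.347), 0.31 for Neurod2 (-0.08 to 0.69, adjusted p 0.106) and 0.29 for Neurod1 (-0.68 to 1.26, adjusted p 0.515). These intervals still allow Insm1 and Neurod2 to have fallen by up to 0.72 and 0.69 less than Neurog3. Without mutant replicate 2 Neurod1 joined the genes that fell by less, by 0.80 (adjusted p 0.00136). In that fit the intervals of all members had the same width, as the variance was pooled over features. The same Neurog3 values enter every difference, which the test does not take into account, so its intervals and p-values may be too small. After quantile normalization of all 8 arrays 2 genes differed, and the estimates for Insm1, Neurod1, Neurod2 and Pax4 changed sign.

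**Figure D3:**
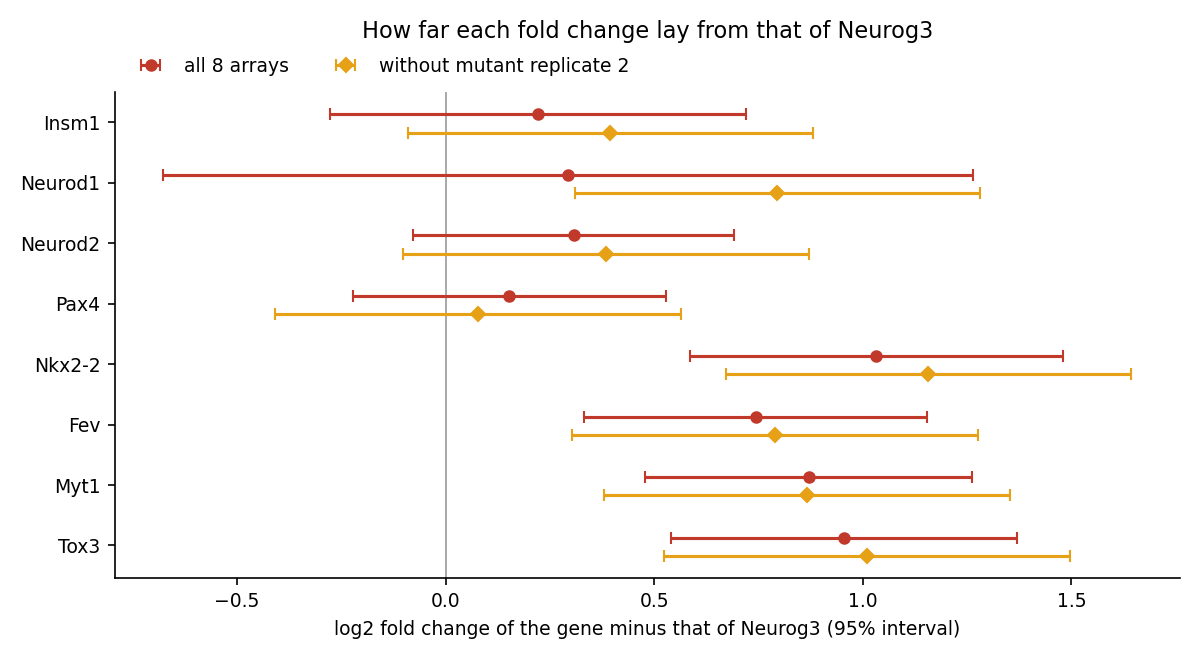
Log2 fold change of each gene minus that of Neurog3 (horizontal axis) with its 95% interval, from all 8 arrays (circles) and without mutant replicate 2 (diamonds), where 0 means a fall equal to that of Neurog3. Nkx2-2, Fev, Myt1 and Tox3 lie above 0 in both analyses, and Neurod1 moves clear of 0 without mutant replicate 2.

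Among the mutant pools, replicate 4 held the lowest value of 5 genes (Neurog3, Neurod2, Pax4, Tox3 and Myt1), replicate 2 that of Insm1, Neurod1 and Nkx2-2, and replicate 1 that of Fev. Replicate 3 held the highest mutant value of 7 genes, all but Neurod2 and Pax4. These counts are a description of 4 pools and were not tested.

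The profile nearest to that of Neurog3 was sought over the 8 arrays, with each gene's level set relative to its own wild-type mean and likeness measured as the root mean square of the log2 differences. Among the members the distance from Neurog3 was 0.157 for Pax4, 0.252 for Neurod2, 0.301 for Insm1, 0.550 for Fev, 0.631 for Myt1, 0.669 for Neurod1, 0.696 for Tox3 and 0.758 for Nkx2-2. Outside the members, over 14652 features, the 6 nearest were Chadl (D930017K21Rik on the array) at 0.184, Has3 at 0.264, Tmem171 at 0.269, Grin3a at 0.316, Noxa1 at 0.316 and Ccl19 at 0.332. Has3 makes hyaluronan, Grin3a is a glutamate receptor subunit and Ccl19 is a chemokine. Their log2 fold changes lay between -2.22 for Noxa1 and -1.54 for Grin3a. Pax4 was thus nearer to Neurog3 than any of the 6. Over the 7 arrays without mutant replicate 2 the distance was 0.0898 for Pax4, 0.268 for Neurod2, 0.301 for Insm1 and 0.549 for Neurod1, and 0.542 to 0.772 for the other 4 members. Has3 and Chadl then held places 1 and 3 among the features outside the members, at 0.146 and 0.196, and the other 4 held places 11 to 23.

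**Figure D4:**
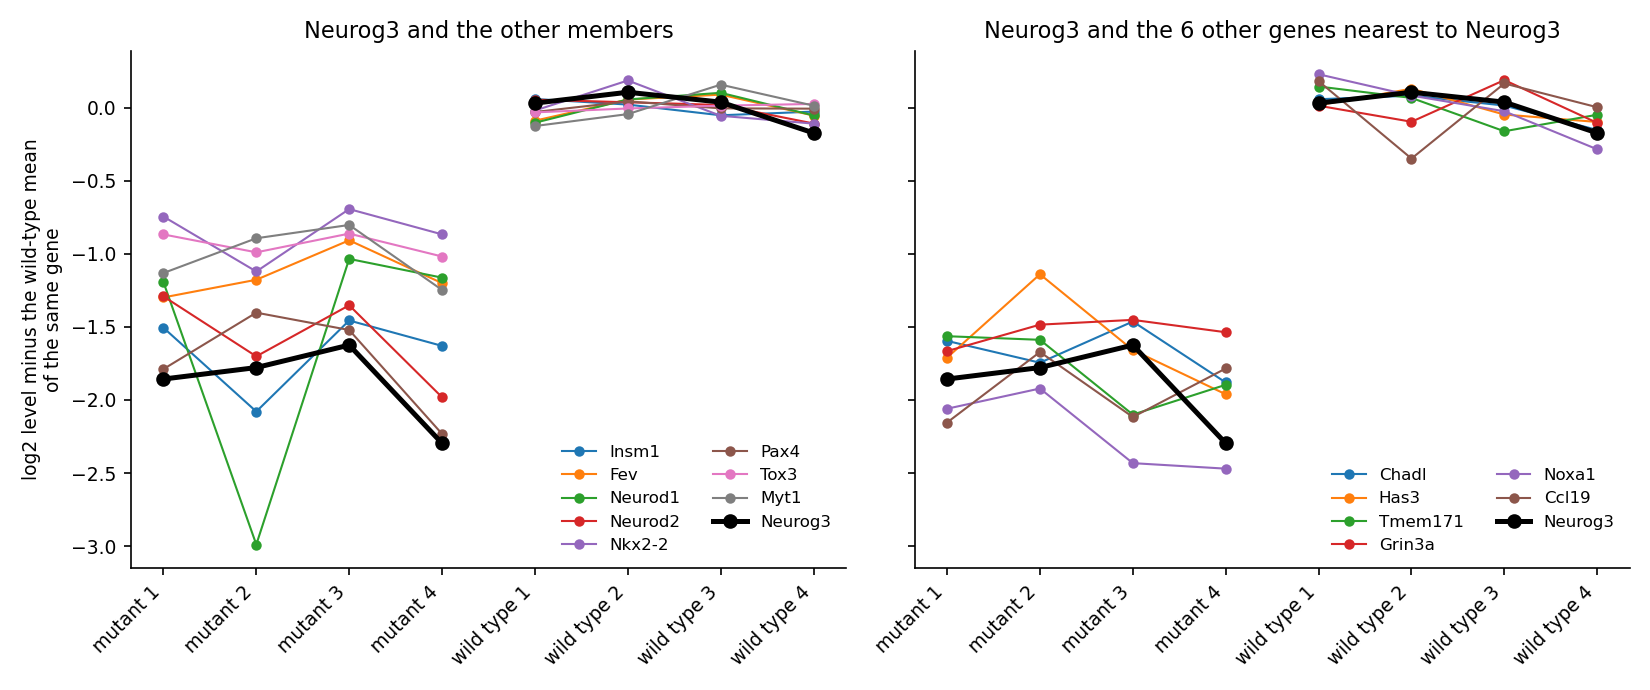
Log2 level minus the wild-type mean of the same gene, in the 4 mutant pools and the 4 wild-type pools, for Neurog3 (thick black line) with the other 8 endocrine precursor factors (left) and with the 6 other genes nearest to it (right); lines only connect the points of one gene. Pax4 and Neurod2 run closest to Neurog3 among the members, at distances of 0.157 and 0.252, and Nkx2-2 farthest, at 0.758.

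Upstream of Neurog3, the known regulators did not move as a block. Of 9 tested genes of this kind, 2 fell, Pdx1 and the targeted gene Sox9 itself, and 2 rose, Onecut1 and Hes1. The median log2 fold change of the 9, Sox9 included, was -0.13. Pdx1, the homeobox factor of the pancreatic primordium and of beta cells, fell by 1.05 on the log2 scale (adjusted p 0.0017). Onecut1, a direct activator of Neurog3 in the mouse, had levels of 1.06, 0.94, 0.93 and 0.81 in the mutant pools, against 0.04, 0.07, 0.31 and -0.44 in the wild-type pools. All mutant pools were higher for Onecut1 (log2 fold change 0.94, adjusted p 0.0187), and its call was lost when mutant replicate 1 or 3 or wild-type replicate 1 or 2 was left out.

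Hes1, the Notch effector that represses Neurog3, had log2 levels of 0.68, 0.71, 0.55 and 0.63 in the mutant pools, against 0.04, 0.20, 0.11 and 0.10 in the wild-type pools. It rose in every mutant pool, by 0.53 on the log2 scale (adjusted p 0.00723), opposite in direction to the 9 precursor factors. Of 16 Notch pathway genes tested, 3 fell and 1, Hes1, rose, with a median log2 fold change of -0.09. Those that fell were Dll3, a ligand-like protein (log2 fold change -1.45, adjusted p 0.0275, well above background in 3 of the 4 mutant pools, and -1.19 without mutant replicate 2), Dtx4, an E3 ligase of the Deltex family (-0.52, adjusted p 0.0228), and Mfng, which modifies Notch receptors (-0.34, adjusted p 0.0234). The calls of Dtx4 and Mfng were kept in 1 of the 8 fits that left out an array, the one without mutant replicate 2, and that of Dll3 also without mutant replicate 3.

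Factors that act after the precursor stage fell in part. Of 16 tested, 5 were called lower and none higher, with a median log2 fold change of -0.43, and without mutant replicate 2 the count was 9 lower. Rfx6 (Rfxdc1 on the array), which acts between Neurog3 and the hormone cells, had log2 levels of -3.11, -3.68, -3.09 and -3.37 in the mutant pools, against -2.12, -1.86, -1.87 and -2.0 in the wild-type pools. It fell by 1.35 on the log2 scale (adjusted p 0.00501). Isl1, a LIM-homeobox factor of islet cells, fell by 0.88 (adjusted p 0.00998), and Mlxipl, a glucose-responsive bHLH factor, by 0.78 (adjusted p 0.00802). Pax6, which islet hormone genes need, fell by 1.27 (adjusted p 0.0189), a call lost when any single wild-type pool was left out.

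Other genes tied to the Neurog3-expressing cell were called lower in 4 of 13 cases and higher in none (median log2 fold change -0.30, against 7 lower without mutant replicate 2). Cer1, a secreted antagonist of Nodal and BMP signalling, had the largest difference, with levels of -4.96, -6.78, -5.42 and -5.81 in the mutant pools, against -2.99, -2.97, -3.62 and -3.28 in the wild-type pools. Its log2 fold change was -2.53 (adjusted p 0.0138), and the probe was well above background in 3 of the 4 mutant pools. Pak3, a kinase, fell by 0.70 (adjusted p 0.0134), and the calls of Cer1 and Pak3 were lost without wild-type replicate 1. Chgb, a granule protein (-1.12, adjusted p 0.039), and Cbfa2t3, a corepressor (Cbfa2t3h on the array, -0.47, adjusted p 0.045), kept their calls in 1 of the 8 fits that left out an array, the one without mutant replicate 2.

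Among 8 hormone genes, 2 fell and none rose, with a median log2 fold change of -0.99, or -0.62 with 4 called lower without mutant replicate 2. Sst had log2 levels of 0.54, -1.21, 1.06 and 0.74 in the mutant pools, against 2.29, 2.60, 2.73 and 2.49 in the wild-type pools. The log2 fold changes were -2.24 for Sst (adjusted p 0.0391) and -1.35 for Ghrl (adjusted p 0.0365). When arrays were left out in turn, Sst kept its call only without mutant replicate 2 and Ghrl only without mutant replicate 2 or 3. The insulin genes were not called over all 8 arrays, at -1.45 for Ins2 (adjusted p 0.142) and -1.29 for Ins1 (adjusted p 0.171). For both, every mutant pool lay below every wild-type pool. Without mutant replicate 2 both were called lower, at -0.89 for Ins2 (adjusted p 0.0066) and -0.75 for Ins1 (adjusted p 0.026). Gcg, the glucagon gene, went the other way in its estimate, with a log2 fold change of 0.22 (adjusted p 0.467).

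Close relatives of the 9 genes were mostly dim or did not pass the test. Of 20 on the array, 13 passed the filter and 1, Pax6, was called lower, with a median log2 fold change of -0.15 (3 called lower without mutant replicate 2). Neurog1, another neurogenin, had log2 levels of -4.00, -3.18, -4.08 and -4.32 in the mutant pools, against -3.08, -3.65, -3.60 and -4.04 in the wild-type pools. The groups overlapped (log2 fold change -0.30, adjusted p 0.520). Neurog2, Neurod4, Neurod6, Atoh1, Nkx2-1, Nkx2-9 and Pax8 were above background on too few arrays to be tested.

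**Figure D5:**
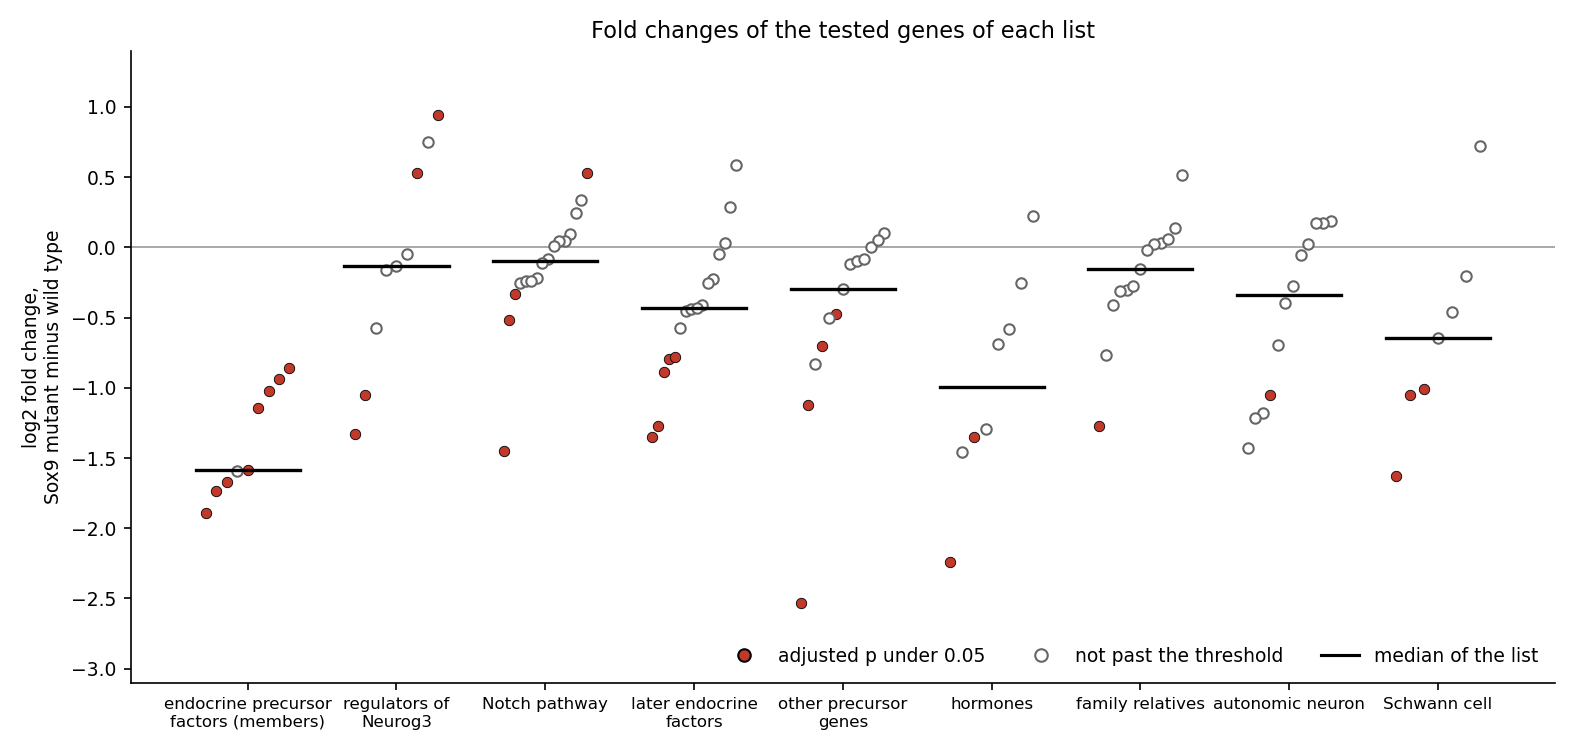
Log2 fold change (Sox9 mutant minus wild type, vertical axis) of each tested gene of the endocrine precursor factors and of 8 other gene lists, filled where the adjusted p was under 0.05, with the median of each list as a bar. The 9 precursor factors all lie below 0 around a median of -1.58, while the regulators of Neurog3 and the Notch pathway genes lie on both sides of 0.

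Markers of other cell types that the dissection could hold were read beside these values, since several of the 9 genes are also active in neurons. Of 7 Schwann cell markers, 3 fell and none rose: S100b (log2 fold change -1.63, adjusted p 0.00767), Sox10 (-1.05, adjusted p 0.00593) and Fabp7 (-1.01, adjusted p 0.0324, a call lost in 6 of the 8 fits that left out an array and kept without mutant replicate 2 or 3). Without mutant replicate 2 a further one, Foxd3, was called lower (-0.75, adjusted p 0.0143). The summed linear level of the 7, relative to the 75th percentile, was 6.65 to 7.30 in the mutant pools, against 10.2 to 10.9 in the wild-type pools, so these groups did not overlap. Such sums follow the brightest probes and do not measure an amount of cells. The brightest here was that of Erbb3, which was not called (-0.20, adjusted p 0.252). Of 12 markers of autonomic neurons, 1 fell, Elavl4 (-1.05, adjusted p 0.0492, kept without mutant replicate 2 or 3), and the summed levels overlapped, at 3.55 to 6.38 in mutant and 4.76 to 8.19 in wild-type pools. The median log2 fold change was -0.65 over the Schwann cell list and -0.34 over the autonomic list, against -0.00 over all features. Without mutant replicate 2 these medians were -0.75 and -0.62, against -0.03 over all features. Every gene of both lists but Chrna3 was well above background on all 8 arrays, and the part of these cells in the falls of the 9 genes was not tested. Among 7 mesenchymal markers none fell and 1 rose (Nkx3-2, 0.57, adjusted p 0.0138, lost without wild-type replicate 3), joined without mutant replicate 2 by Twist1 (0.52, adjusted p 0.00907). None of 6 endothelial markers was called, and the summed levels of the mesenchymal and of the endothelial list overlapped between genotypes. Of 5 gut markers none was called, and their median log2 fold change was -1.08, or -1.69 without mutant replicate 2. The gut markers varied within both genotypes: Fabp1 had log2 levels of -3.84, -0.23, -4.27 and -4.61 in the mutant pools, against -0.13, -2.58, -4.82 and -0.58 in the wild-type pools. Cdx2 was likewise highest in mutant replicate 2 and in wild-type replicates 1 and 4. Its probe was dim, well above background in 1 of the 4 mutant pools and 3 of the 4 wild-type pools. In all 4 wild-type pools each of the 9 genes, Neurod2 at its brighter probe, lay above all its mutant values. The part of gut tissue in the falls of the 9 genes was not tested. The summed level of the 8 epithelial markers, carried mostly by Cpa1, Krt8 and Krt18, was 299 to 397 in mutant and 342 to 372 in wild-type pools. Its lowest value was in mutant replicate 2. Without that array the mutant range was 370 to 397, and Krt8 (0.31, adjusted p 0.0128), Krt18 (0.41, adjusted p 0.0322) and Krt19 (0.47, adjusted p 0.00639) were called higher. With and without it, Pdx1 was the 1 epithelial marker called lower. Of the 21 called genes named from the lists, Sox9 apart, the call was kept by 12 after quantile normalization (Hes1, Onecut1, Pdx1, Rfx6, Isl1 and S100b among them), by 4 after normexp (Pdx1, Pax6, Sox10 and S100b) and by 1 after median centring (S100b), where the log2 fold change of Hes1 was 0.13.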

How the data were processed

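Each one-colour Agilent array was hybridised with Cy3-labelled RNA (about 250 ng per pool). Per the file headers, the deposited files are Agilent Feature Extraction output. The processed signal used here is an intensity on a linear scale that the scanner software had corrected for background, not normalized between arrays. The authors name limma, per the submitters' processing notes, without version or steps. Their deposited series table, also an intensity, served as an alternative.

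Control and outlier spots were left out, log2 spots of a probe averaged and each array's 75th percentile subtracted. Probes well above background on at least 4 of 8 arrays were kept (29465), with the brightest probe per gene (19394 features). Genotype was fitted with limma 3.58.1 (R 4.3.3; lmFit, eBayes, two-sided), with Benjamini-Hochberg adjustment over all features and calls at 0.05. Differences from Neurog3 used the same model after subtracting Neurog3. RefSeq (GRCm38.p6) gave the promoter windows and, for the probes, names only. Of the probes, 24367 matched by accession, 6307 by symbol and 2425 by synonym, and 8075 had no match. The number of arrays limits the precision.

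The 9 genes and all lists were chosen with earlier results of these data known. Besides Sox9 and the 9 genes, the rule named up to 4 called genes of each list by adjusted p (up to 2 by smallest p where none was called) and the 6 features nearest to Neurog3. Other genes named from the lists (Gcg, Ins1, Ins2, Neurog1, Krt8, Krt18, Krt19, Cpa1, Twist1, Foxd3, Erbb3, Fabp1, Cdx2) were chosen after their values were seen. Alternatives covered scaling, background, filter, probe choice, array weights, series table values, replicate block and each array left out.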

Additional observations from a re-analysis of the deposited data

Results flagged for a closer look

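In 6 of 90 groups of 4 pools, 1 pool lay far from the other 3; chance alone gives about 1 in 20. In 5 of the 6 that pool was mutant replicate 2. Neurod1 had a log2 level of -4.68 there, against -2.88 to -2.73 in the other mutant pools, and Pax6 had -1.85, against -1.04 to -0.89. Cbfa2t3 was low in it at 0.65, against 1.02 to 1.08. S100b was high in it at 0.05, against -0.87 to -0.74, as was the Sox9 probe that did not pass the test, at -0.57, against -2.31 to -2.12. The remaining one was Emcn, an endothelial marker, at 1.85 in wild-type replicate 4, against 1.75 to 1.76 in the other wild-type pools.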

How the results depend on the processing

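Neurog3 and Pax4 were called lower under all 19 alternatives run, Neurog3 with log2 fold changes of -2.29 to -1.75 and adjusted p of 3.23e-04 to 0.0297. With 8 of the 9 genes called lower in the reported setting, the count was 2 after median centring, 4 after quantile normalization, 5 after normexp, 7 with probes averaged (Neurod2 lost) and 8 to 9 with 1 array left out. Calls over all features, 1082 as reported, numbered 45 after median centring, 863 after quantile normalization and 106 after normexp (83 lower and 23 higher, against 669 and 413 as reported). They numbered 398 with no filter, 4978 with array weights, 2181 from the series table, 716 with probes averaged and 358 to 3363 with 1 array left out. Median centring moved the median of all features to -0.40, and Sox9 then had -1.73 (adjusted p 0.110). Relative to the median of all features Neurog3 was at -1.885 in both scalings. This was fixed in advance, as each subtracts a constant from every gene of an array. Genes differing from Neurog3 numbered 4, against 2 after quantile normalization and 4 to 5 with 1 array left out. Directions turned for the difference from Neurog3 after quantile normalization (Insm1 -0.31, Neurod1 -0.48, Neurod2 -0.45, Pax4 -0.089), for the other Neurod2 probe without mutant replicate 4 (0.034, within a left-out range of -1.13 to 0.034) and for Emcn (-0.32) and Pecam1 (-0.34) after median centring, which shifts every gene by the same amount and so turns the sign of genes near 0. In settings chosen after seeing the data, without mutant replicate 2, median centring gave 3414 calls and quantile normalization 3523, with all 9 genes lower. Correlations of the deviations of same-numbered pools were -0.02 to 0.13. With 4 pools per genotype and mutant replicate 2 set apart, such values cannot show whether the numbers pair samples. A fit with the replicate block gave 146 calls and 7 of the 9 genes lower. In that fit the call of Nkx2-2 was lost and Neurod1 stayed uncalled. Neurod1 had no value when probes had to be above background on all arrays. The cause of the other changes was not tested.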
